A study of Mus musculus with 4 samples.

Results

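Langerin, the adhesion molecule Epcam, E-cadherin and its catenins, and claudin 1 were examined in Langerhans cells, the antigen-presenting dendritic cells that live among the keratinocytes of the epidermis. All probe sets that the platform annotation gives to exactly 1 of the symbols Cd207, Epcam, Cdh1, Ctnnb1, Ctnna1, Ctnnd1 and Cldn1 were taken, which gave 14 of the 22626 probe sets of the array that are not Affymetrix controls. Expression was read on 4 one-colour Affymetrix arrays, each of primary mouse Langerhans cells isolated 24 h after injection into the peritoneum and sorted to a purity that the design text states as 95%. The 2 TCDD arrays come from mice given 10 µg of TCDD (2,3,7,8-tetrachlorodibenzo-p-dioxin, a ligand of the aryl hydrocarbon receptor) in 100 µl of oil or DMSO and oil. Control 1 comes from mice given 100 µl of DMSO and olive oil, and control 2 is a control by its title and description, with no vehicle of its own in the labels. TCDD 2 and control 2 were from back skin, and the labels of TCDD 1 and control 1 name no site. Arrays with the same site label are called a preparation here. The labels of the controls name different experiments and those of the TCDD arrays name none, so that TCDD 1 shares an experiment with control 1, or TCDD 2 with control 2, is an assumption. The sources used here do not give strain, age, sex or the number of animals behind an array.

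Langerin, encoded by Cd207, is a C-type lectin that binds mannose-rich glycans and builds the Birbeck granules of Langerhans cells. E-cadherin holds these cells to neighbouring keratinocytes, and inside the cell its tail is bound by beta-catenin and p120, with alpha-catenin joining beta-catenin to actin. Epcam is a homophilic adhesion protein that associates with claudins, claudin 1 is a strand-forming protein of tight junctions, and loosening of such contacts accompanies the departure of Langerhans cells for the lymph node.

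Some properties of the arrays bear on every value below. The labels of control 2 conflict: it is called a control in 2 fields, whereas the field on treatment names TCDD. Control 1 stood apart in RNA quality: for actin, the 3′ control probe set exceeded the 5′ one by factors of 3.48 and 7.71 on TCDD 1 and 2, against 49.7 and 4.64 on controls 1 and 2, and for Gapdh by factors of 9.55 and 15.9 against 106.8 and 11.9. Median signals lay between 164.9 and 188.2 on the 4 arrays. Whether arrays stand for separate animals or for pools is not stated, so p-values cover only the spread among these 4 arrays, and that spread may be technical.

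Promoters are shown because TCDD acts through a receptor that binds DNA, and because the genes printed are the members whose tested probe sets differed most between arrays (Cd207, Cldn1, Ctnnd1) or whose windows held the receptor's core motif (Ctnnb1, Ctnnd1). Sequences were RefSeq's, build GRCm38.p6, from 250 bases before to 50 bases after an annotated start, and 5 of the 7 genes had an entry, with 7 windows between them. Capitals mark any of 4 motifs searched on both strands: the dioxin response element core GCGTG, the TCF/LEF motif CTTTGAT, the RUNX motif TGTGGT and the PU.1 motif GAGGAA. Of all 32851 windows of this length, 32.4% held the dioxin response element core, 3.73% the TCF/LEF motif, 16.8% the RUNX motif and 28.3% the PU.1 motif. The windows printed are the single one of Cd207 on the minus strand (chr6:83677808-83678107), that of Cldn1 on the minus strand (chr16:26371790-26372089), the outer one of Ctnnb1 on the plus strand (chr9:120933150-120933449) and the outer one of Ctnnd1 on the minus strand (chr2:84658928-84659227).
Cd207: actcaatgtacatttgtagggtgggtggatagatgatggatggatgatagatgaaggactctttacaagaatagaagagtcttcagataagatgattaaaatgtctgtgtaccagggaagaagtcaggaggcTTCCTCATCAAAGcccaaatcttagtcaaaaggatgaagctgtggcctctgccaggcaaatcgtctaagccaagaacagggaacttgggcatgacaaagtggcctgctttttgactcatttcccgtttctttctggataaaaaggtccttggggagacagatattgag
Cldn1: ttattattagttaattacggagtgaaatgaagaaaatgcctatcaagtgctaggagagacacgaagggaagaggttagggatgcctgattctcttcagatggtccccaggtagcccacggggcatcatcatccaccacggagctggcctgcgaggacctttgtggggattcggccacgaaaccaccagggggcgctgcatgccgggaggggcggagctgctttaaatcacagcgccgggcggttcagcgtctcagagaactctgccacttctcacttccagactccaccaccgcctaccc
Ctnnb1: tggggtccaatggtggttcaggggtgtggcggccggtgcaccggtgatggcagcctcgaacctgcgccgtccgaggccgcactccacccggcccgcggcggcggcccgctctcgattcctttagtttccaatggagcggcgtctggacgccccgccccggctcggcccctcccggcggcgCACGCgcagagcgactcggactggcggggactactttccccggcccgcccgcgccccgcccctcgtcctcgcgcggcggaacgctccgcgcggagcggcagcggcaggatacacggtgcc
Ctnnd1: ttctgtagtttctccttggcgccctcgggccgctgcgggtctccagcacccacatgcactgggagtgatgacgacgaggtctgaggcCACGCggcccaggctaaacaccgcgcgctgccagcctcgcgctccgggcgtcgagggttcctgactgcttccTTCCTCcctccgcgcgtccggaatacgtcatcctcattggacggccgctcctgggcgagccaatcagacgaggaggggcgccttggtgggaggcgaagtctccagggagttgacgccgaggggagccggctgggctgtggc
In Cd207, the reverse complements of the PU.1 and TCF/LEF motifs abutted without overlap, beginning 118 and 112 bases before the start. The reverse complement of the dioxin response element core began 70 bases before the outer start of Ctnnb1 and 163 bases before the outer start of Ctnnd1, which also held a PU.1 match 91 bases before the start. The window of Cldn1 held none of the 4 motifs, nor did that of Epcam. Matches of letters are a description of these windows and say nothing of binding.

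Expression was given by the authors as MAS5 signals, on a linear scale with all arrays brought to one trimmed mean, and was compared on the log2 scale. The filter on dim probe sets (a mean log2 signal of at least 6.85) was passed by 10 of the 14 probe sets, at least 1 for each of the 7 genes. The other 4 were read on every array but not tested. Levels of different probe sets are not compared as amounts of RNA, since each probe set has its own brightness. The sums of marker signals given below follow the brightest probe sets of a list and do not measure the share of a cell type.

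**Figure D1:**
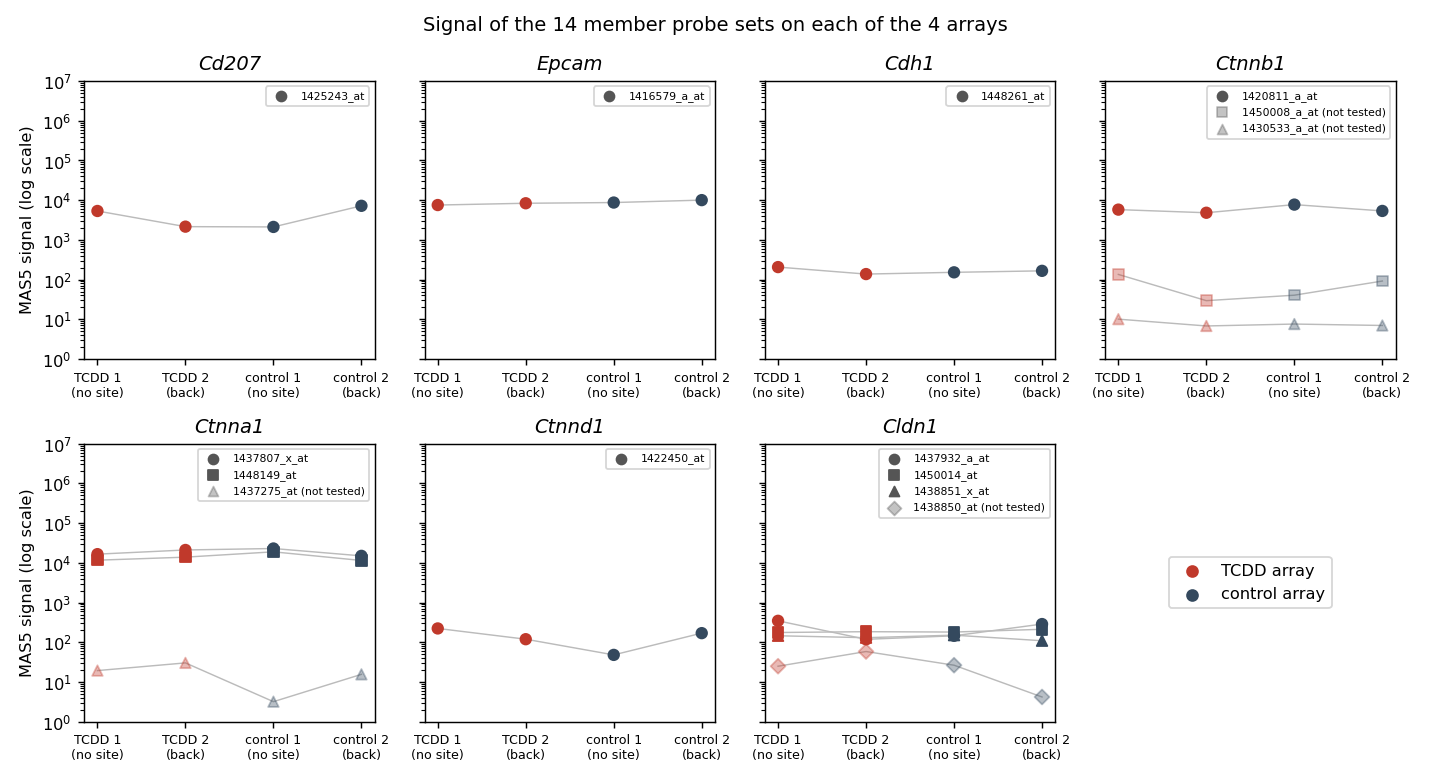
MAS5 signal (log axis) of each of the 14 probe sets on TCDD 1, TCDD 2, control 1 and control 2, a panel per gene and a marker per probe set, with TCDD arrays in red, control arrays in dark blue and untested probe sets pale. Epcam stays between 7541 and 10032, and Cd207 is at 5343 on TCDD 1 and 7210.5 on control 2 but at 2155 on TCDD 2 and 2119.9 on control 1.

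Cd207 gave no common difference between TCDD and control, and its signal ran in opposite directions in the 2 preparations. Probe set 1425243_at read 5343 on TCDD 1 and 2155 on TCDD 2, against 2119.9 on control 1 and 7210.5 on control 2. The highest and the lowest signal were both control arrays, 3.40-fold apart, and the TCDD values lay between them. With no site named the signal was 2.52-fold higher on TCDD 1 than on control 1, a log2 ratio of 1.33. In back skin it was 3.35-fold lower on TCDD 2 than on control 2, a log2 ratio of -1.74. These ratios rest on the pairing by site: set against the other control, TCDD 1 gave -0.43 and TCDD 2 gave 0.024. In the fit over 4 arrays, TCDD minus control came to -0.20 ± 0.62 on the log2 scale (SE, n = 2 per group, limma, adjusted p = 0.9999), with a 95% interval from -1.61 to 1.20. That interval spans folds of TCDD over control from 0.329 to 2.29. The direction rested on single arrays: the log2 difference was -1.09 without control 1 (limma, adjusted p = 0.667), -0.86 without TCDD 1, 0.68 without control 2 and 0.45 without TCDD 2. In bulk samples such as these, fewer cells of a type and less RNA per cell cannot be told apart.

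Epcam, in contrast to this spread, had the same order in both preparations. Probe set 1416579_a_at read 7541 on TCDD 1 and 8362 on TCDD 2, against 8717 on control 1 and 10032 on control 2. Both TCDD signals lay under both control signals, as was the case for 13.2% of the 13576 tested probe sets and for 1 of the 10 tested here. The log2 ratio was -0.26 in back skin and -0.21 in the other preparation, and the highest signal was 1.33-fold the lowest. The fit gave -0.24 ± 0.30 (SE, n = 2 per group, limma, adjusted p = 0.9999), with a 95% interval from -0.91 to 0.44. The value stayed below 0 with each array left out in turn, between -0.34 and -0.13.

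Cdh1, which encodes E-cadherin, was read by a single probe set, 1448261_at, close to the median of the array. It read 206.6 on TCDD 1 and 137.8 on TCDD 2, against 152.5 on control 1 and 166.2 on control 2. Its percentile among all probe sets of the array was 53.6 and 43.8 on TCDD 1 and 2, against 47.9 and 46.4 on controls 1 and 2. The TCDD arrays held both the highest and the lowest value, and the groups overlapped. The log2 difference was 0.08 ± 0.42 (SE, n = 2 per group, limma, adjusted p = 0.9999), with a 95% interval from -0.88 to 1.04, and turned to -0.21 without TCDD 1.

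The catenins that bind the cadherin tail were read by 7 probe sets, of which 4 were tested. For beta-catenin, which also carries Wnt signals to the nucleus, the bright probe set of Ctnnb1 (1420811_a_at) read 5784 and 4823 on TCDD 1 and 2, against 7736 and 5358 on controls 1 and 2. It was lower with TCDD in both preparations, with log2 ratios of -0.42 and -0.15, although TCDD 1 lay above control 2. The log2 difference was -0.29 ± 0.31 (SE, n = 2 per group, limma, adjusted p = 0.9999), and was -0.02 without control 1, which held the highest signal. An untested probe set of Ctnnb1 (1450008_a_at) read 135.0 and 29.5 on TCDD 1 and 2, against 40.5 and 92.0 on controls 1 and 2. No ratio is drawn from these dim signals. The remaining one stayed between 6.8 and 10.1.

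Alpha-catenin, the link to actin, is encoded by Ctnna1 and had the highest signal on control 1 by both tested probe sets. The brighter (1437807_x_at) read 16588 and 21120.3 on TCDD 1 and 2, against 23005 and 15015 on controls 1 and 2. The other (1448149_at) read 11682 and 13936 on TCDD 1 and 2, against 18977 and 11489 on controls 1 and 2. Both were lower on TCDD 1 than on control 1, with log2 ratios of -0.47 and -0.70, and higher on TCDD 2 than on control 2, with log2 ratios of 0.49 and 0.28. This is the reverse of the Cd207 pattern at a smaller size. The log2 differences over 4 arrays were 0.01 ± 0.31 and -0.21 ± 0.33 (SE, n = 2 per group, limma, adjusted p = 0.9999 for each). The value of the brighter probe set was 0.32 without control 1, -0.30 without control 2 and -0.16 without TCDD 2, and that of the other turned to 0.15 without control 1. A dim probe set of Ctnna1, at 19.4 and 30.3 on TCDD 1 and 2 against 3.2 and 15.6 on controls 1 and 2, was not tested.

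p120, encoded by Ctnnd1, slows the removal of cadherin from the cell surface and had the largest log2 difference of the 10 tested probe sets, which did not pass the test. Probe set 1422450_at read 223.3 on TCDD 1 and 119.7 on TCDD 2, against 48.2 on control 1 and 170.1 on control 2. Control 1 lay far under the other 3 arrays, and the control 2 signal fell between the TCDD signals. The geometric mean of 121.7 was close to the filter, which stands at a signal of 115.4, and the control mean of 109.15 lay under it. This probe set was therefore tested only through its TCDD signals, and such passing favours a positive difference. The log2 difference was 0.85 ± 0.65 (SE, n = 2 per group, limma, adjusted p = 0.9999), with a 95% interval from -0.63 to 2.34. It rested on control 1, whose RNA controls had the largest excess of 3′ signal: it was -0.057 without control 1 and 1.76 without control 2 (limma, adjusted p = 0.156). The part of RNA quality in this value was not tested.

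Cldn1 was read by 4 probe sets that did not share a pattern. The brightest (1437932_a_at) read 347.5 on TCDD 1 and 118.9 on TCDD 2, against 145.8 on control 1 and 287.8 on control 2. As for Cd207, it was higher on TCDD 1 than on control 1 by 2.38-fold and lower on TCDD 2 than on control 2 by 2.42-fold. The log2 difference over 4 arrays was -0.01 ± 0.57 (SE, n = 2 per group, limma, adjusted p = 0.9999), and ran from -0.78 without TCDD 1 and -0.50 without control 1 to 0.48 without control 2 and 0.76 without TCDD 2. A further probe set (1450014_at) read 176.5 and 185.1 on TCDD 1 and 2, against 181.2 and 212.7 on controls 1 and 2 (-0.12 ± 0.38), and stayed within 1.21-fold on the 4 arrays. Yet another (1438851_x_at) read 146.1 and 130.7 on TCDD 1 and 2, against 151.3 and 109.6 on controls 1 and 2 (0.10 ± 0.44), and turned to -0.13 without control 2. The dim one, not tested, read 25.0 and 58.6 on TCDD 1 and 2, against 26.5 and 4.2 on controls 1 and 2. Opposite ratios of 2-fold or more thus stood in 1 of the 3 tested probe sets of Cldn1.

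**Figure D2:**
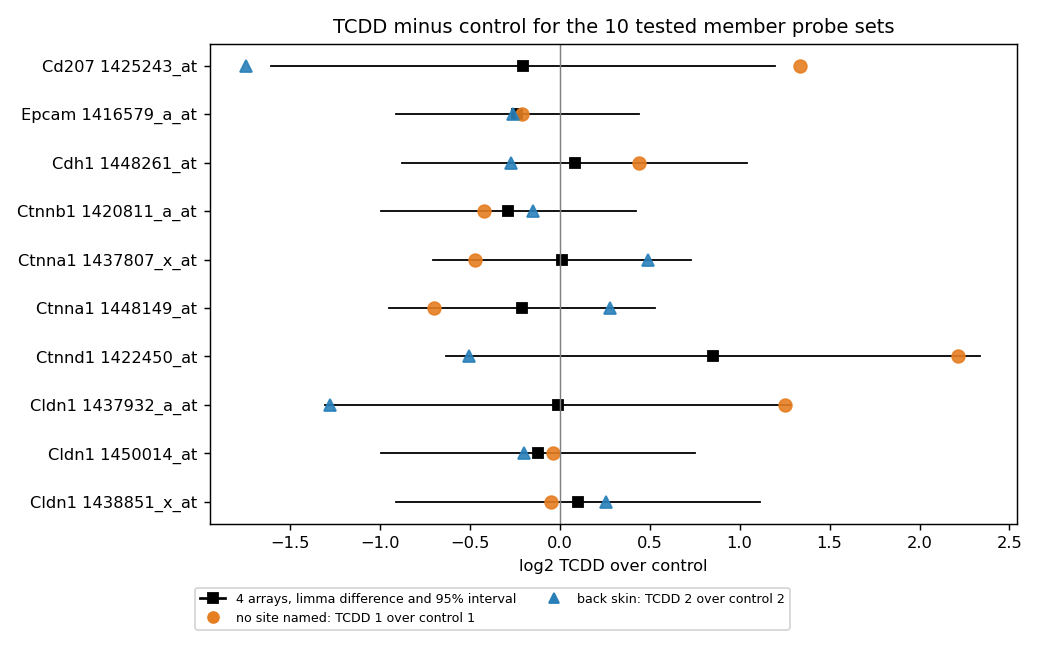
The log2 ratio of TCDD to control (x axis) for the 10 tested probe sets, with black squares and lines for the limma difference over 4 arrays and its 95% interval, orange circles for the preparation with no site named and blue triangles for back skin. Every interval crosses 0, and the circles and triangles of Cd207 and of the brightest Cldn1 probe set lie at least 1 log2 unit from 0 on opposite sides.

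Of the 10 tested probe sets, 0 passed for TCDD against control at an adjusted p under 0.05 (limma), where 0.0% of all 13576 passed, and 0 had an unadjusted p under 0.05, where 1.47% of all did. The smallest unadjusted p of these probe sets was 0.225, for Ctnnd1 (limma). By direction, 0 of the 10 were higher with TCDD in both preparations, against 19.3% of all tested probe sets, and 3 were lower in both, against 21.3%. Another 4 were higher with TCDD where no site is named and lower in back skin, against 33.5% of all, and 3 ran the reverse way, against 25.8%. These shares lay near those of the array, and probe sets of 1 gene are not independent. At 2-fold or more in opposite directions there were 2 of the 10, Cd207 and the brightest probe set of Cldn1, and 145 of all, or 1.07%. Both were higher with TCDD where no site is named and lower in back skin, as were 0.818% of all tested probe sets at that size.

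**Figure D3:**
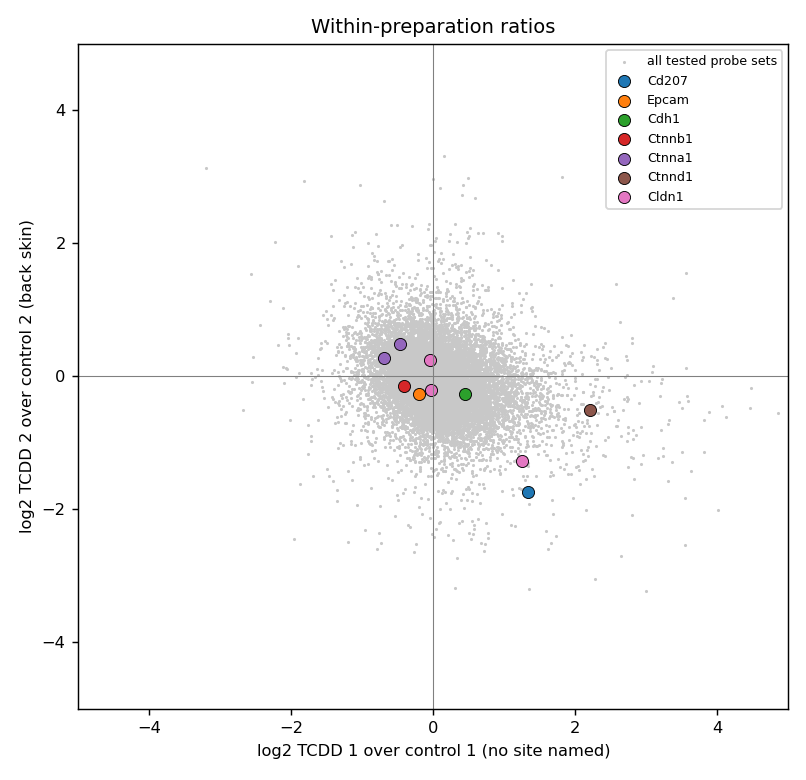
The log2 ratio of TCDD 1 to control 1 (x axis, no site named) against that of TCDD 2 to control 2 (y axis, back skin), with grey points for all 13576 tested probe sets and coloured points for the 10 tested probe sets of the 7 genes. Cd207, at 1.33 and -1.74, and the brightest Cldn1 probe set, at 1.25 and -1.28, lie in the lower right quadrant, away from the bulk, and Ctnnd1 lies to the right at 2.21 and -0.51.

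Back skin was compared with the other preparation in the same fit, and 0 of the 10 probe sets passed (limma, smallest adjusted p = 0.9994), where 0.0% of all 13576 did. At an unadjusted p under 0.05 there were also 0 of the 10, against 2.02% of all. Cd207 differed by 0.23 ± 0.62 on the log2 scale (SE, n = 2 per preparation): it was higher on control 2 than on control 1, with a log2 ratio of 1.77, and lower on TCDD 2 than on TCDD 1, with a log2 ratio of -1.31. Its difference turned to -0.44 without control 1 and -0.64 without control 2. Epcam differed by 0.18 ± 0.30 and Cdh1 by -0.23 ± 0.42. The catenin differences were -0.40 ± 0.31 for the bright probe set of Ctnnb1, -0.13 ± 0.31 and -0.23 ± 0.33 for Ctnna1, and 0.46 ± 0.65 for Ctnnd1. Without control 1 the Ctnna1 values turned to 0.10 and 0.12 and that of Ctnnd1 to -0.65, and without control 2 that of the brighter Ctnna1 probe set was 0.11. For Cldn1 the differences were -0.28 ± 0.57, 0.15 ± 0.38 and -0.31 ± 0.44, of which the value for the brightest probe set turned to 0.34 without TCDD 1 and 0.35 without TCDD 2.

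Cd207 was set beside all other genes by the Euclidean distance between log2 profiles over the 4 arrays, each centred on its mean. Among 12416 tested probe sets with 1 symbol, the median distance was 1.58 log2 units. The nearest was Cd2, an adhesion receptor of T cells and natural killer cells, at 0.12, with 182.0 and 74.7 on TCDD 1 and 2 against 78.6 and 239.4 on controls 1 and 2. Next came Pla2g7, which encodes a secreted hydrolase of platelet-activating factor, at 0.13, Slc35a2, a nucleotide sugar transporter of the Golgi, and Dnmt3a, a DNA methyltransferase, both at 0.22. Il1r2, the decoy receptor for interleukin 1, lay at 0.23, with 2737 and 1042 on TCDD 1 and 2 against 1256 and 3590 on controls 1 and 2. Mettl9, Gpatch8 and the ubiquitin ligase gene Rnf6 completed the 8 nearest, up to 0.35. Among the anchoring genes, the brightest Cldn1 probe set was nearest to Cd207, at 0.61 and rank 78, and the 2 tested Ctnna1 probe sets were farthest, at 2.06 and 2.08.

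**Figure D4:**
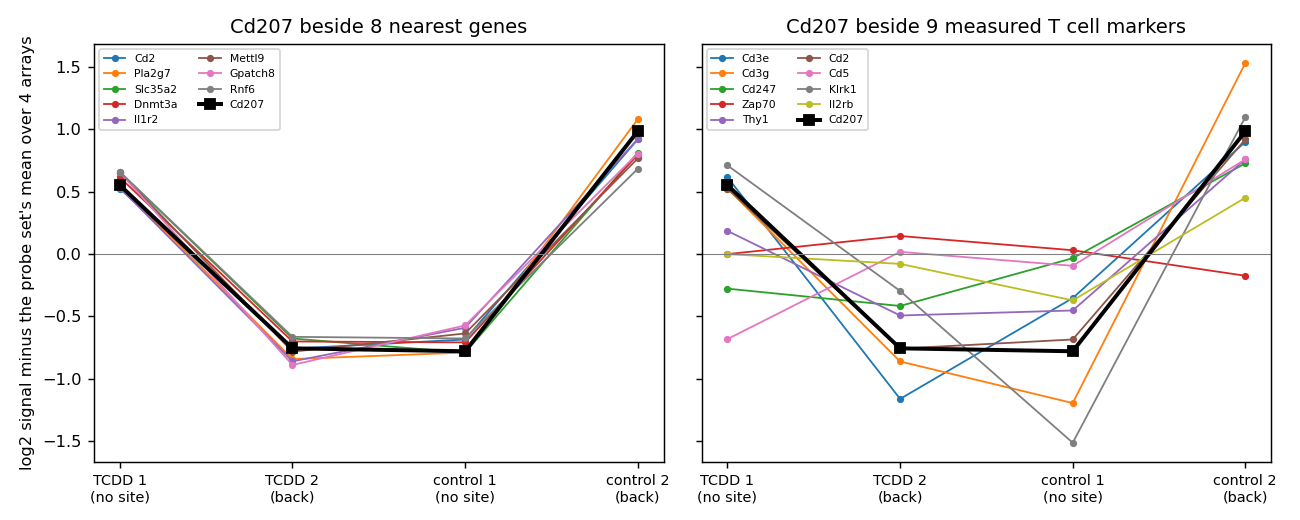
The log2 signal minus each probe set's mean over 4 arrays (y axis) on TCDD 1, TCDD 2, control 1 and control 2, with Cd207 in black, beside its 8 nearest genes (left) and the 9 measured T cell markers (right). The 8 genes follow Cd207 closely by choice, and Cd3e, Cd3g, Cd2 and Klrk1 also lie above their mean on TCDD 1 and control 2 and below it on TCDD 2 and control 1, whereas Zap70 was lowest on control 2 and Cd5 was lowest on TCDD 1.

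Markers of other cells were read beside these signals. Of 12 T cell markers, 11 were on the array and 9 were tested. Of the 9, 6 were higher with TCDD where no site is named and lower in back skin, as Cd207 was. That direction held for 2637 of all 8413 genes measured, each by its brightest tested probe set. The 6 include Cd2, the profile nearest to Cd207. Cd3e, part of the T cell antigen receptor, read 386.9 and 112.7 on TCDD 1 and 2, against 197.5 and 471.3 on controls 1 and 2. The signals of the 9 markers summed to 2458 and 1886 on TCDD 1 and 2, against 1812 and 3245 on controls 1 and 2. Of these sums Zap70, a kinase downstream of the receptor, made up 856.7 and 947.6 on TCDD 1 and 2, against 875.4 and 759.4 on controls 1 and 2, with its lowest signal where Cd207 was highest. Cd5, a coreceptor, and Cd247, a signalling chain, were lower with TCDD in both preparations, at 94.7 and 153.9 against 142.4 and 257.5 for Cd5 and at 117.5 and 106.7 against 139.2 and 236.1 for Cd247. The filter was passed by Cd247 only through its control signals, which favours a lower value with TCDD. Cd3d, from the same receptor, lay under the filter at 18.1 and 6.4 against 5.9 and 36.0. The part of T cell RNA in the Cd207 and Cldn1 signals was not tested.

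Keratinocytes make E-cadherin and claudin 1, and of 13 keratinocyte markers 12 were on the array and 6 were tested. Their signals summed to 1156 and 1607 on TCDD 1 and 2, against 1371 and 1249 on controls 1 and 2. The brightest of the 6 was Lor, the cornified envelope protein loricrin, at 407.0 and 772.0 on TCDD 1 and 2, against 678.4 and 479.1 on controls 1 and 2. Perp, a desmosomal membrane protein, and the keratin gene Krt10 were highest on TCDD 1, at 222.5 and 151.6. Cdh1 and the brightest Cldn1 probe set were also highest there. The keratin gene Krt14, Lor and the desmosomal cadherin gene Dsc3 were instead highest on TCDD 2, at 249.5, 772.0 and 185.8. Krt5 was lowest on TCDD 1, at 72.5, and highest on control 2, at 211.5. The part of keratinocyte RNA in the Cdh1 and Cldn1 signals was not tested. Lor, Perp, Krt10 and Dsc3 were named here after their values were seen. Krt5 and Krt14, keratins of basal keratinocytes, lay between 72.5 and 211.5 and between 166.1 and 249.5. Among the untested markers, Krt15, Ivl and Sfn stayed at or under 21.6 on all 4 arrays, and Trp63 lay between 71.2 and 85.3. Krt1, also untested, read 96.6 and 213.6 on TCDD 1 and 2, against 18.9 and 127.3 on controls 1 and 2. Krtdap, untested as well, read 42.2 and 148.6 on TCDD 1 and 2, against 103.7 and 119.1 on controls 1 and 2.

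Langerin is also made by a dermal dendritic cell that bears the integrin chain Itgae. Of 9 markers listed for that cell, 7 were tested, with sums of 10983 and 14871 on TCDD 1 and 2, against 13621 and 12476 on controls 1 and 2. Irf8, a transcription factor that other dendritic cells also make, was the largest signal in these sums, at 5069 and 7908 on TCDD 1 and 2, against 8150 and 6227 on controls 1 and 2. Cadm1, an adhesion molecule, read 822.0 and 563.1 on TCDD 1 and 2, against 653.1 and 788.2 on controls 1 and 2. Batf3 read 1967.5 and 2906 on TCDD 1 and 2, against 1693 and 1574 on controls 1 and 2, with its lowest signal where Cd207 was highest. Of the 7, 1 was higher with TCDD in both preparations, 1 was lower in both and 5 went opposite ways. Those directions held for 1509, 1918 and 4982 of all 8413 genes measured. Irf8 and Cadm1 were named after their values were seen, and the part of dermal dendritic cells in the Cd207 signal was not tested. Itgae read 165.8 and 100.5 on TCDD 1 and 2, against 149.2 and 142.8 on controls 1 and 2, and Xcr1, the chemokine receptor of cross-presenting dendritic cells, read 163.8 and 189.5 against 181.4 and 368.2. Of 12 Langerhans cell markers, which include Cd207 and Epcam, 10 were tested. In these 10, 4 were higher with TCDD where no site is named and lower in back skin, and 0 ran the reverse way. A further 2 were higher in both and 4 lower in both. Over all 8413 genes measured, these directions held for 2637, 2345, 1509 and 1918, in that order. H2-Eb1, a chain of class II, followed the order of Cd207 in each preparation, at 5980 and 3972 on TCDD 1 and 2 against 1404 and 7042 on controls 1 and 2, while Csf1r, the growth factor receptor that maintains these cells, stayed between 8469 and 11699. Itgam, an integrin chain of myeloid cells, lay under the filter at 8.9 and 15.3 on TCDD 1 and 2, against 37.1 and 20.8 on controls 1 and 2. H2-Aa and Cd74, of the class II pathway, were also lowest on control 1, at 5847 and 3406. Unlike Cd207, both were higher on TCDD 2 than on TCDD 1, at 10461 against 8760 for H2-Aa and 6191.5 against 5557 for Cd74. Melanocyte markers, 9 tested of 10, summed to 2081 and 1922 on TCDD 1 and 2, against 2151 and 2630 on controls 1 and 2. Fibroblast and endothelial markers, 4 tested of 10, summed to 960.2 and 777.9, against 728.8 and 979.9. In each of these lists 0 markers passed for TCDD (limma).

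The wider adhesion machinery was described through 7 gene lists, each gene by its brightest tested probe set, and in none of the 7 did a gene pass in either direction for TCDD or for the preparation (limma). Over all 8413 genes measured this way, 0 passed and the median TCDD minus control log2 difference was -0.03. Of the 8413, 1509 were higher with TCDD in both preparations, 1918 were lower in both and 4982 went opposite ways. The direction counts of every list below are to be read beside these. In the list of cadherins, catenins and adherens junction proteins, 15 of 23 genes were measured, with a median log2 difference of 0.08, which was -0.021 without control 1 and -0.024 without TCDD 2. Of these, 2 were higher with TCDD in both preparations, 2 were lower in both and 11 went opposite ways. Ctnnd2, a neural relative of p120, read 271.8 and 227.8 on TCDD 1 and 2, against 147.8 and 178.7 on controls 1 and 2, with both TCDD signals above both control signals, as in 12.4% of all tested probe sets (0.61 ± 0.38). The other measured gene higher in both was Vcl, vinculin, an actin-binding protein of adhesion sites (0.27 ± 0.32), and Iqgap1, a scaffold that binds E-cadherin and beta-catenin, was lower in both by a small margin (-0.06 ± 0.29). Vcl and Iqgap1 were named after their values were seen.

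Tight junction genes were measured for 10 of 22, with a median log2 difference of -0.02, and 1 was higher and 3 were lower in both preparations. Cgnl1, which encodes a junctional scaffold related to cingulin, read 283.9 and 286.2 on TCDD 1 and 2, against 575.0 and 378.6 on controls 1 and 2 (-0.71 ± 0.35). Cldn10 (0.50 ± 0.46) and Cldn4 (0.37 ± 0.40), further claudins, had higher mean log2 signals with TCDD. The control signals of Cldn10, 84.6 and 126.1, lay under the filter in their mean log2 signal. It was tested only through its TCDD signals, and such passing favours a positive difference. Without TCDD 1 the median of the list was -0.26, and without TCDD 2 it was 0.30. Desmosome genes, 8 measured of 13, had a median of 0.03, with 0 higher and 2 lower in both, and of 0.31 without control 1 and -0.24 without control 2. Dsp, desmoplakin, read 360.8 and 381.3 on TCDD 1 and 2, against 464.1 and 159.9 on controls 1 and 2 (0.45 ± 0.44). The plakophilin gene Pkp1 (-0.50 ± 0.50) was at 506.6 on control 1 and between 133.9 and 188.9 on the other arrays. Dsc3, a desmosomal cadherin (0.46 ± 0.51), is in the keratinocyte list too, and passed the filter only through its TCDD signals, as Cldn10 did.

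Genes of beta-catenin and Wnt signalling were measured for 15 of 21, with a median of 0.12, or 0.0085 without control 2 and 0.20 without control 1, and 4 were higher and 2 lower in both preparations. Bcl9, a nuclear partner of beta-catenin, read 280.8 and 241.5 on TCDD 1 and 2, against 162.8 and 176.6 on controls 1 and 2 (0.62 ± 0.37). Ctnnbip1, an inhibitor of the binding of beta-catenin to TCF proteins, differed by 0.43 ± 0.39, and Dvl3, a cytoplasmic relay of Wnt receptors, by 0.40 ± 0.53. Like Cldn10, Dvl3 passed the filter only through its TCDD signals, with controls 1 and 2 at 68.8 and 154.4. Repressors of Cdh1 transcription were measured for 5 of 8, with a median of 0.08, or -0.074 without control 1, -0.030 without TCDD 2 and 0.23 without control 2. Of the 5, 2 were higher with TCDD in both preparations, Twist2 and Tcf3, 1 was lower in both and 2 went opposite ways. The lower one was Zeb1, which read 6401 and 4714 on TCDD 1 and 2, against 6684 and 7439 on controls 1 and 2 (-0.36 ± 0.32). Snai1 (0.17 ± 0.38) and Twist2 (0.28 ± 0.44) read between 101.6 and 229.6, and Zeb2 lay under the filter, at 35.6 to 200.3.

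Surface proteases and their inhibitors were measured for 14 of 15, with a median of -0.11, or -0.24 without TCDD 1, and 1 was higher and 5 were lower in both preparations. The gene that was higher in both was St14, which encodes matriptase, a membrane protease that cleaves Epcam. It read 8040 and 10735 on TCDD 1 and 2, against 4813 and 8335 on controls 1 and 2 (0.55 ± 0.31), so that TCDD 1 lay under control 2. Spint1, an inhibitor of matriptase, read 303.2 and 280.1 on TCDD 1 and 2, against 412.4 and 410.8 on controls 1 and 2 (-0.50 ± 0.34), with both TCDD signals below both control signals, as in 13.2% of all tested probe sets. Adam17, a sheddase, was lower in both preparations as well (-0.44 ± 0.35). Genes of the recycling pathway through which langerin returns to the surface were measured for 6 of 10, with a median log2 difference of -0.0048, and -0.32 without control 2 but 0.30 without control 1. Rab11a, the GTPase of recycling endosomes, read 2278 and 1666 on TCDD 1 and 2, against 2760.2 and 1821 on controls 1 and 2 (-0.20 ± 0.34). Rab11b (0.19 ± 0.34) and Tfrc, the transferrin receptor (0.26 ± 0.35), were higher with TCDD in both preparations. Of the other recycling genes measured, 2 were lower in both, Rab11a among them, and 2 went opposite ways.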

How the data were processed

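The authors deposited linear MAS5 signal intensities for every probe set on each array. Per the submitters' processing notes, affy and MAS5 were used, in versions not stated. Trimmed of the lowest and highest 2% of probe sets, every deposited column averaged 500. Background settings and detection calls are not stated. Of 22626 probe sets that are not Affymetrix controls, 20380 had 1 symbol, 691 several and 1555 none, and 20351 matched a RefSeq gene (GRCm38.p6) by gene ID.

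Signals were taken to log2. The 13576 probe sets at or above the 40th percentile of mean log2 signal (6.85) entered a linear model of treatment plus preparation (limma 3.58.1, R 4.3.3) with a variance trend and Benjamini-Hochberg adjustment over all of them. Each probe set keeps 1 residual degree of freedom. Precision is limited by the number of arrays, with a median SE of 0.364 for a log2 difference. Arrays were paired by the skin site in their titles, and the preparation difference seen in control and that seen in TCDD correlated at a Pearson's r of -0.18 over probe sets, which are not replicates. The fit was tested on 10 simulated data sets with 200 changed probe sets each and no preparation difference. At an adjusted p under 0.05 (limma) it called 5.2% of 2-fold changes and 70.8% of 4-fold changes. A mean of 27 unchanged probe sets per simulation were also called.

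The members and gene lists were chosen with earlier results of these data known. Every member probe set was named, with up to 3 genes per pathway list by size of the TCDD difference, up to 4 markers per marker list and the 8 profiles nearest to Cd207; other names were chosen after their values were seen. Alternatives tried were median centring, quantile normalization, a 60th percentile filter or no filter, an offset of 50, no variance trend, no preparation term, each array left out and, for lists, the mean of a gene's probe sets.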

Additional observations from a re-analysis of the deposited data

Results flagged for a closer look

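The log2 ratio of TCDD to control for Cd207 had opposite signs in the 2 preparations, at 2-fold or more each. Where no site is named it was 1.33, over control 1, whose RNA controls had the largest excess of 3′ signal. In back skin it was -1.74, over control 2, the array with conflicting labels. The brightest probe set of Cldn1 did the same, with log2 ratios of 1.25 and -1.28, and its other tested probe sets had no ratio of that size. The difference between the preparations was not tested in either case, since each preparation holds 1 array per treatment. The opposite signs rest on the pairing of arrays by site label: TCDD 1 over control 2 and TCDD 2 over control 1 gave -0.43 and 0.024 for Cd207, and 0.27 and -0.29 for the Cldn1 probe set.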

How the results depend on the processing

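Over all 4 arrays 0 probe sets passed for TCDD (limma), with 199 at an unadjusted p under 0.05, but 12 passed without control 1 and 285 without control 2, the array with conflicting labels, for a range of 0 to 285 with arrays left out. For back skin 89 passed without TCDD 1, for a range of 0 to 89. A crossed pairing of arrays as the block, chosen after seeing the data, gave 10 calls for TCDD. In none of these fits did a probe set of the 7 genes pass. Each fit with an array left out holds only the term it tests, treatment or preparation. It takes the spread of a single remaining array from the other group. Without control 2, control 1 was the only control left, the array whose RNA controls had the largest excess of 3′ signal. Without TCDD 1, control 1 alone stood for the preparation with no site named. The part of RNA quality in the calls of these fits was not tested. Without the preparation as a replicate block, the pairing of arrays by site being set aside, 0 probe sets passed in either comparison, and the TCDD differences were the same values (-0.20 for Cd207).

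With arrays left out, the TCDD difference ranged from -1.09 to 0.68 for Cd207, -0.21 to 0.38 for Cdh1, -0.30 to 0.32 and -0.57 to 0.15 for the Ctnna1 probe sets, -0.057 to 1.76 for Ctnnd1, and -0.78 to 0.76 and -0.13 to 0.33 for the Cldn1 probe sets that turned. The back skin difference ranged from -0.64 to 1.10 for Cd207, -0.38 to 0.11 and -0.58 to 0.12 for Ctnna1, -0.65 to 1.57 for Ctnnd1 and -0.92 to 0.35 for the brightest Cldn1 probe set. Epcam, the bright Ctnnb1 probe set and a Cldn1 probe set kept their sign in both comparisons. The other alternatives left every sign and call of the tested members as it was where they gave a value, except that an offset of 50 turned the TCDD difference of the brightest Cldn1 probe set to 0.011. The filter at the 60th percentile left out Cdh1, Ctnnd1 and Cldn1.

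With arrays left out, list medians ranged from -0.074 to 0.23 for the repressors of Cdh1 and from -0.24 to -0.076 for surface proteases, and the mean of a gene's probe sets gave 0.17 for the repressors. Ranges were wider for tight junctions (-0.26 to 0.30), desmosomes (-0.24 to 0.31) and langerin recycling (-0.32 to 0.30). They were -0.024 to 0.22 for the adherens junction list and 0.0085 to 0.20 for Wnt signalling. The causes were not tested.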
